A study of Mus musculus with 10 samples.

Results

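The 7 genes described here are those of the aryl hydrocarbon (Ah) receptor and of the cytochrome P450 family 1 enzymes that it is best known for controlling, *Cyp1a1*, *Cyp1a2*, *Cyp1b1*, *Ahr*, *Ahrr*, *Arnt* and *Tiparp*. They were taken by name from 16647 listed genes with no threshold on their values, by a choice made with earlier results of these data known. Liver RNA was sequenced from 10 male PXR-CAR-CYP3A4/3A7 mice, in which human genes stand in for the mouse xenobiotic receptors PXR and CAR and human CYP3A4 and CYP3A7 for mouse Cyp3a genes, so that both groups carry the same human alleles and none is wild type. All animals were started on a high-fat diet (HFD) at an age of 10 to 15 weeks and ate it for 8 weeks before and throughout the 4 weeks of dosing. The 5 MI-883 mice received 5 mg/kg MI-883, a compound described as an agonist of human CAR and an antagonist of human PXR, by oral gavage 3 times a week, and the 5 control mice received the vehicle alone. Each library came from another mouse, and the libraries held 23513665 to 36221514 counts (control 24014461 to 36221514, MI-883 23513665 to 28349963). The 8 hepatocyte markers summed to between 73216 and 96040 CPM (counts scaled to a common library size) in every liver, and the Y-linked gene *Ddx3y* had 1559 to 3212 counts in all livers. The question was whether *Cyp1a2* moved alone or with the rest of the Ah receptor pathway.

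The Ah receptor (*Ahr*) is a basic helix-loop-helix/PAS protein that waits in the cytoplasm in a complex with HSP90 and, once a planar aromatic ligand is bound, enters the nucleus and pairs with *Arnt*. The pair binds DNA at sites with the core GCGTG and raises *Cyp1a1*, *Cyp1a2* and *Cyp1b1*, whose products oxidise polycyclic aromatic hydrocarbons, aromatic amines and estrogens, together with *Ahrr* and *Tiparp*, which both dampen the receptor. In liver, *Cyp1a2* is also made without an added ligand, mostly by hepatocytes around the central vein, whereas *Cyp1a1* is nearly silent until the receptor is activated, and *Cyp1a2* has also been described among the genes that CAR activators raise in mice.

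*Cyp1a2* (Entrez 13077) and *Cyp1a1* (Entrez 13076) lie head to head on chromosome 9 of GRCm38.p6, on the minus strand at 57676937 to 57683655 and on the plus strand at 57687928 to 57703824, and the start sites used for their promoters are 13958 bases apart. The start used for *Cyp1a1*, 57697613, lies inside its listed interval. The bases before the first position of that interval were not searched. The 250 bases before each start (RefSeq, GRCm38.p6, 5′ to 3′ on the strand of the gene) are printed for this pair, since the comparison turns on it, and for *Ahrr*, which held the most copies of the core GCGTG. Capitals mark GCGTG on the printed strand.
Cyp1a2, chr9:57683656-57683905, minus strand: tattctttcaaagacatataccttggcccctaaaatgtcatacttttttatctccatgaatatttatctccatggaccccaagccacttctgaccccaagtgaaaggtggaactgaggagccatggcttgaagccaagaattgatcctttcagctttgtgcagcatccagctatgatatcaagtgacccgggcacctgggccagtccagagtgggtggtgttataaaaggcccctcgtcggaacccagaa
Cyp1a1, chr9:57697363-57697612, plus strand: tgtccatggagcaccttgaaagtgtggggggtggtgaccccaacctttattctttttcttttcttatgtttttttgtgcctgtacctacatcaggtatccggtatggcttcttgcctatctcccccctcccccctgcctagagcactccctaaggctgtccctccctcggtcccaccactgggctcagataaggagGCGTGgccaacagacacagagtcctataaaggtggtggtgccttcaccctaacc
Ahrr, chr13:74292332-74292581, minus strand: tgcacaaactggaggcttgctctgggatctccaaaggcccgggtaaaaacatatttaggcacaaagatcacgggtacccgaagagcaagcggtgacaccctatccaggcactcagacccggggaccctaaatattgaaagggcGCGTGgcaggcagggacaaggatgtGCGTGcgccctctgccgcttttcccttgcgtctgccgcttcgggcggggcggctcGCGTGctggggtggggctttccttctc

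Promoters were found for 6 of the 7 genes. Searched on both strands, GCGTG occurred 3 times before *Ahrr*, once each before *Cyp1a1*, *Cyp1b1*, *Arnt* and *Tiparp*, and at no place in the *Cyp1a2* window. Of 32851 promoters of the same length, 28.2% held it. The longer form TNGCGTG, which contains the core, was found in the *Ahrr* window alone among the 6 and in 4.10% of all promoters. The hexamers AGGTCA and AGTTCA, half-sites of nuclear receptors such as CAR, were in none of the 6 windows and in 14.0% and 11.8% of all promoters. These matches describe the letters of a short window, and sites farther from the start were not searched.

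*Cyp1a2*, which codes for the main constitutive family 1 enzyme of liver and oxidises caffeine and aromatic amines, was higher in the MI-883 livers. It stood at 242, 244, 377, 303 and 265 CPM in control livers 1 to 5 and at 662, 1113, 835, 1121 and 1115 CPM in MI-883 livers 1 to 5. The lowest treated liver lay above the highest control liver, and 3 treated livers sat close together at the top. The means were 286 ± 56.5 and 969 ± 211 CPM (SD, n = 5 a group), a log2 fold change of 1.76 ± 0.17 (SE; 95% interval 1.40 to 2.12), or 3.39-fold, with an adjusted *P* of 0.00012 in edgeR's quasi-likelihood test over 13219 tested genes. The adjusted *P* was 7.3e-24 in DESeq2, and an exact two-sided permutation test of log2 CPM (prior count 2) gave 0.00794, the smallest *P* that 5 against 5 livers allow. By log2 fold change *Cyp1a2* ranked 46 among the tested genes, and its place by mean CPM among all listed genes went from 528 in the controls to 138 in the treated livers. Bulk RNA cannot tell more RNA per cell from more cells that make it.

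*Ahr* (Entrez 11622, chromosome 12, 35497979 to 35534989), the receptor itself, stood at 23.5, 37.5, 37.8, 50.8 and 47.5 CPM in the controls and at 54.1, 84.8, 72.9, 55.6 and 53.0 CPM after MI-883. The groups did not overlap, although the lowest treated liver at 53.0 CPM was close to the highest control at 50.8 CPM. The means were 39.4 ± 10.7 and 64.1 ± 14.1 CPM (SD, n = 5), and the log2 fold change was 0.70 ± 0.19 (SE; 95% interval 0.29 to 1.11). The 2 tools differed on it, with an adjusted *P* of 0.109 in edgeR and 0.0145 in DESeq2, and the exact permutation *P* for this gene alone was 0.00794. When single livers were omitted the adjusted edgeR *P* stayed between 0.0903 and 0.223, so *Ahr* is given here as a value and not as a called change. An antisense transcript, *Gm48236*, overlaps *Ahr* by 127 bases, and without the strand setting of the counting its reads could not be told apart there.

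*Cyp1a1*, the gene most often used as a readout of Ah receptor activity, was close to silent in both groups. It had 26, 37, 33, 40 and 11 counts in the controls, which is 0.726, 1.16, 1.35, 1.16 and 0.483 CPM. After MI-883 it had 38, 31, 73, 29 and 49 counts, or 1.30, 1.37, 2.70, 1.26 and 1.74 CPM. Treated livers 2, 3 and 5 were above every control, livers 1 and 4 were within the control range, and liver 3 was the highest. The log2 fold change of 0.78 ± 0.30 (SE; 95% interval 0.13 to 1.43) had an adjusted *P* of 0.240 in edgeR and 0.162 in DESeq2, with an exact permutation *P* of 0.0238 for this gene alone, and it was 0.54 without treated liver 3. Of the 2687 stretches of 100 bases in *Cyp1a1* transcripts, 38 (1.41%) also occur in *Cyp1a2*, whose RNA was far more abundant, and whether reads of one were counted for the other was not tested. *Cyp1a2* made up 99.0 to 99.6% of the counts of the 3 Cyp1 genes in the control livers and 99.5 to 99.8% in the treated livers.

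*Cyp1b1* (Entrez 13078, chromosome 17, 79706940 to 79715061), which hydroxylates estradiol and is made mainly outside hepatocytes, was also scarce. Its levels were 1.20, 1.31, 0.450, 0.666 and 0.570 CPM in the controls and 1.30, 0.841, 1.33, 0.783 and 0.887 CPM in the treated livers, from 11 to 43 counts a liver. The groups overlapped over most of their range, and the log2 fold change was 0.27 ± 0.32 (SE; 95% interval -0.41 to 0.96; adjusted *P* 0.705 in edgeR).

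*Arnt* (Entrez 11863, chromosome 3, 95434367 to 95497240), the DNA-binding partner shared by the Ah receptor and the hypoxia factors, stood at 41.3, 42.6, 36.8, 37.1 and 43.7 CPM in the controls and at 40.6, 42.4, 43.0, 42.8 and 43.4 CPM in the treated livers. All treated values fell inside the control range, and the 95% interval of the log2 fold change, -0.07 to 0.22 around 0.08, was the narrowest of the 6 tested genes (adjusted *P* 0.610 in edgeR).

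*Ahrr* and *Tiparp* are the feedback inhibitors of the pathway, the first a repressor that competes for *Arnt* and the second an ADP-ribosyltransferase that modifies the receptor. *Tiparp* (Entrez 99929, chromosome 3, 65528447 to 65555518) stood at 6.93, 8.56, 4.86, 5.73 and 6.23 CPM in the controls and at 6.12, 7.26, 8.07, 4.18 and 6.03 CPM after MI-883. The groups covered largely the same span, and the log2 fold change of -0.03 ± 0.18 (SE; 95% interval -0.42 to 0.36; adjusted *P* 0.951 in edgeR) took the other sign when libraries were scaled by total counts (0.015), without control liver 2 (0.098) or without treated liver 4 (0.083). It overlaps the opposite-strand gene *4931440P22Rik* by 223 bases, with the same limit as for *Ahr*. *Ahrr* (Entrez 11624, chromosome 13, 74211118 to 74292331) had only 5 or 6 counts in each control liver and 2, 3, 8, 1 and 2 counts in treated livers 1 to 5. This is 0.140 to 0.219 CPM in the controls and 0.0435 to 0.296 CPM after MI-883, with 4 treated livers below every control and 1 above. With 43 counts in all *Ahrr* stayed under the minimum of 60 for testing, and at this depth no difference was detectable (exact permutation *P* = 0.119 on log2 CPM with a prior count of 2).

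**Figure D1:**
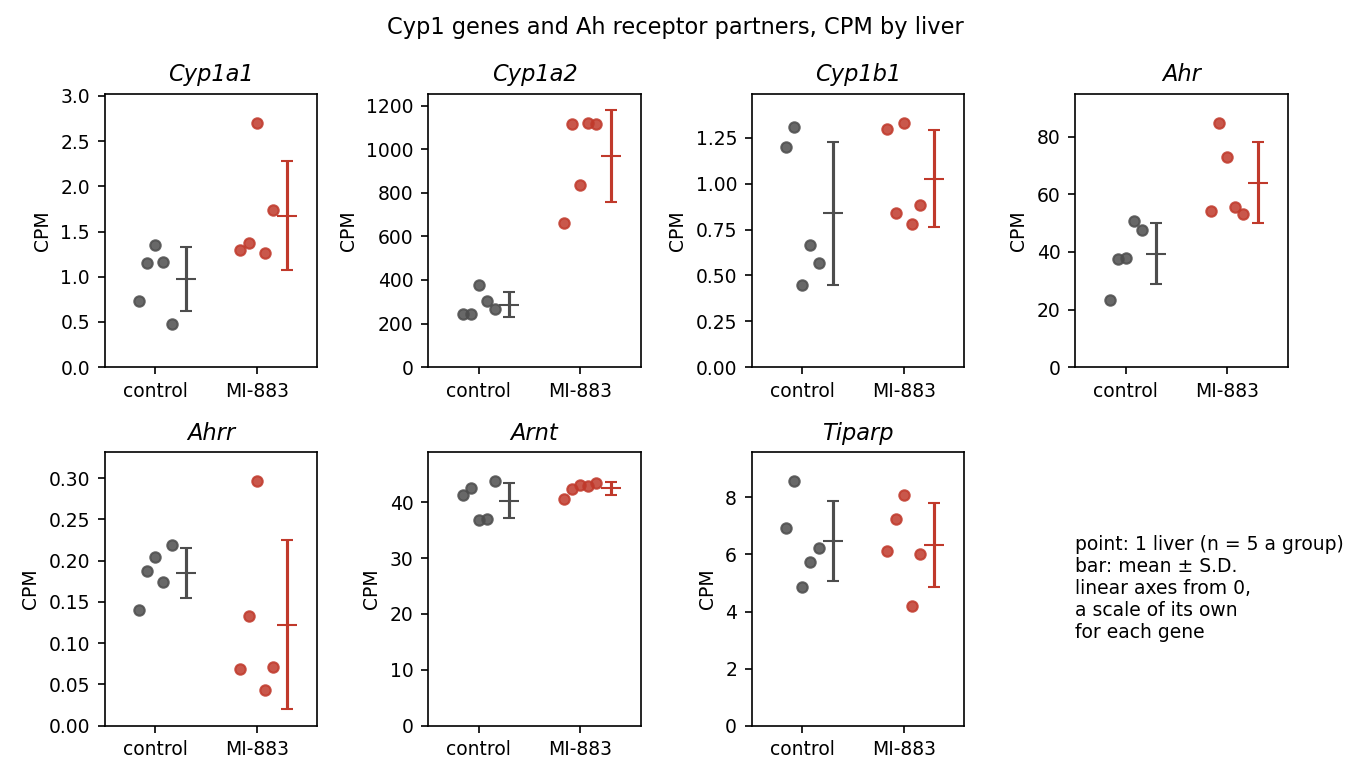
Expression of the 7 genes in CPM (vertical axes, linear and starting at 0, a scale of its own for each gene) in control (grey) and MI-883 (red) livers, 1 point a liver in replicate order, with the mean ± SD (n = 5) beside each group. The groups are apart for *Cyp1a2* and *Ahr*, and overlap for the other 5 genes.

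Of the 6 tested genes, edgeR called 1, *Cyp1a2*, where 1.03% of all tested genes were called, and DESeq2 called 2, *Cyp1a2* and *Ahr*, where it called 3.50% of the genes it gave an adjusted *P*. The groups did not overlap for the same 2 genes, against 3.98% of all tested genes. An unadjusted *P* under 0.05 was reached by 3 genes, the third being *Cyp1a1*, against 15.6% of all tested genes. The log2 fold change was above 0 for 5 and below 0 for 1, with a median of 0.49 beside 0.0045 over all tested genes.

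**Figure D2:**
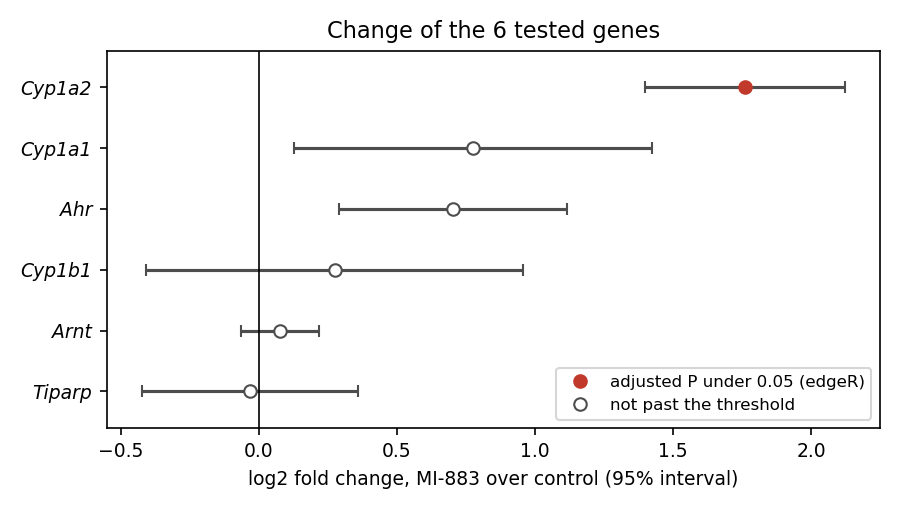
Log2 fold change of MI-883 over control livers with its 95% interval (horizontal axis) for the 6 tested genes, filled where the adjusted *P* of edgeR was under 0.05. The interval of *Cyp1a2*, 1.40 to 2.12, overlaps that of *Cyp1a1* by a little and lies above those of the other 4 genes.

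Since a difference in call does not show that 2 genes changed by different amounts, *Cyp1a2* was divided by each other tested gene per liver. This also removes the library scaling, apart from its part in the prior count added to each gene. The log2 ratio of *Cyp1a2* to *Ahr* was 2.89 ± 0.42 in the controls and 3.91 ± 0.42 in the treated livers (SD, n = 5), a difference of 1.03 with no overlap of the groups (exact two-sided permutation *P* = 0.00794, 1 of 5 such tests, unadjusted). *Cyp1a2* thus rose by more than *Ahr* in the same livers. Against *Arnt* and *Tiparp* the ratio was higher by 1.67 and 1.79 on the log2 scale, again with no overlap (exact permutation *P* = 0.00794 each). Against *Cyp1a1* it was higher by 0.99 (exact permutation *P* = 0.0238), and the groups overlapped in the range from 8.23 to 8.90. Against *Cyp1b1* the difference was 1.40 (exact permutation *P* = 0.0397), also with overlap, and leaving out a single liver took the *P* past 0.05 in 7 of 10 cases. The counts behind the last 2 ratios were at most 73 a liver for the scarce partner, so these ratios depend on the prior count. With a prior count of 0.5 or 5 the difference against *Cyp1a1* was 0.95 or 1.05 (exact permutation *P* = 0.0397 or 0.0159). Against *Cyp1b1* it was 1.38 or 1.45 (exact permutation *P* = 0.0397 or 0.0238).

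**Figure D3:**
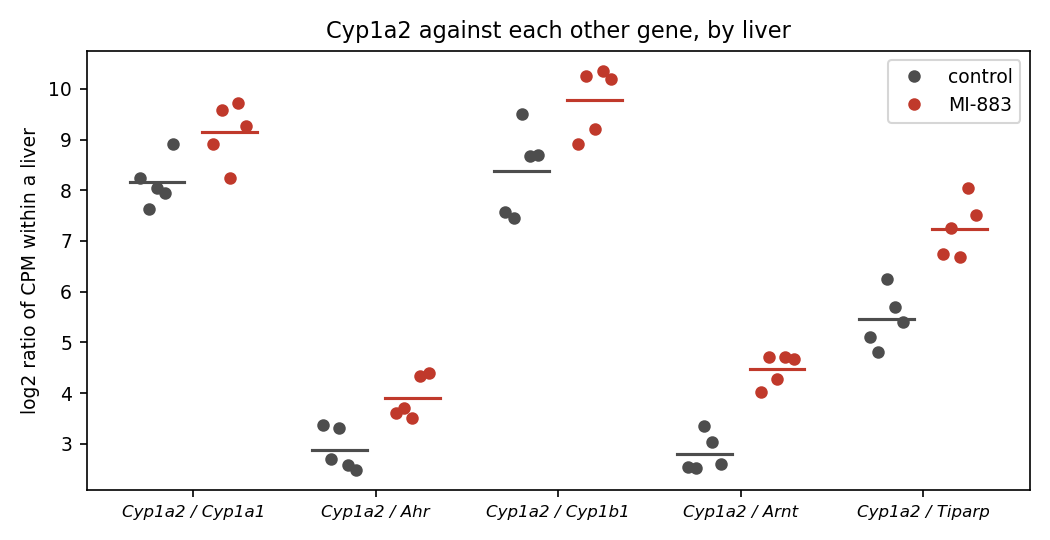
Log2 ratio of the CPM of *Cyp1a2* to that of each other tested gene within a liver (vertical axis), 1 point a liver and a line at the group mean, control in grey and MI-883 in red. The ratio to *Ahr*, *Arnt* and *Tiparp* separates the groups, and the ratio to *Cyp1a1* and *Cyp1b1* shows overlapping groups with higher treated means.

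Compared per kilobase of exon, the order of the 7 genes was the same in both groups. In the controls *Cyp1a2* stood at 142 CPM per kb, *Ahr* at 6.39, *Arnt* at 5.03, *Tiparp* at 1.48, *Cyp1a1* at 0.350, *Cyp1b1* at 0.144 and *Ahrr* at 0.0196 (means, n = 5). Neighbours in this order whose ranges overlapped were *Ahr* with *Arnt* and *Cyp1a1* with *Cyp1b1*. In the MI-883 livers the levels were 481, 10.4, 5.30, 1.45, 0.601, 0.176 and 0.0130 CPM per kb in the same order, and there *Ahr* stood apart from *Arnt*, while *Tiparp* and *Cyp1a1* overlapped. Per kilobase the level of *Cyp1a2* was 292 to 761 times that of *Cyp1a1* in the controls (median 387) and 428 to 1230 times in the treated livers (median 888).

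Among other genes described as Ah receptor targets, edgeR called 1. Of 16 listed genes, 14 could be tested, and edgeR called 1 higher, against 0.764% of all tested genes, and 0 lower. It was *Cyp2a5*, a coumarin hydroxylase, which went from 2513 ± 438 to 4277 ± 811 CPM without overlap of the groups (log2 fold change 0.77 ± 0.15 SE, adjusted *P* 0.028 in edgeR). The log2 fold change was above 0 for 12 of the 14, with a median of 0.31 beside 0.0045 over all tested genes. In edgeR 6 of the 14 were at an unadjusted *P* under 0.05, against 15.6% of all tested genes. The groups did not overlap for 2, *Cyp2a5* and *Ugt1a6b*, against 3.98%. Without single livers the count of calls moved between 0 and 3, at 0 without control 2, 3 or 5 or treated liver 2, 4 or 5, and at 3 without control 1. *Cyp2a5* kept its call in 4 of these 10 fits. DESeq2 called 2, against 3.50% of all genes, with *Ugdh* (UDP-glucose dehydrogenase, 219 ± 46.1 to 313 ± 45.0 CPM, adjusted *P* 0.0156 in DESeq2 and 0.112 in edgeR) as the other.

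The remaining targets gave values that did not pass. *Nqo1*, the quinone reductase, stood at 10.1 ± 2.81 CPM in the controls and at 15.4 ± 4.22 CPM in the treated livers, with 4 treated livers above every control and a log2 fold change of 0.60 ± 0.21 (SE, adjusted *P* 0.192 in edgeR). The glucuronosyltransferases *Ugt1a6a* and *Ugt1a6b* gave 0.32 and 0.31 (adjusted *P* 0.277 and 0.171 in edgeR). For *Ugt1a6b* all 5 treated livers lay above every control. *Ugt1a6a* and *Ugt1a6b* are neighbours in the Ugt1a cluster and share their last exons, so that reads could be split between them. *Gsta1*, a glutathione transferase with a near-identical copy in *Gsta2*, gave 1.58 ± 0.51 (adjusted *P* 0.168 in edgeR) with control values from 2.90 to 35.4 CPM. *Socs2* had the lowest value at -0.45. *Aldh3a1*, a classical target, and *Scin* were below the minimum for testing, *Aldh3a1* with at most 3 counts in any liver. The list shares *Cyp2a5*, *Gsta1* and *Gsta2* with the list of CAR targets, so the lists are not independent.

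The proteins that hold, fold and assist the receptor showed no called change. All 13 listed chaperones and coregulators were tested, with log2 fold changes from -0.12 to 0.43 and a median of 0.06. There were 0 calls by edgeR, against 1.03% of all tested genes, and 0 by DESeq2, against 3.50%. None was at an unadjusted *P* under 0.05 in edgeR, against 15.6%. With so few genes called over all, 0 calls in a list this short say little about its genes. Among them *Hsp90ab1*, the more abundant HSP90 gene, stood at 1002 ± 95.3 and 1046 ± 128 CPM, and *Hsp90aa1* at 135 ± 26.3 and 133 ± 10.1 CPM. Of 16 other basic helix-loop-helix/PAS genes, the family of *Ahr* and *Arnt*, 8 were tested, and their log2 fold changes lay between -0.13 and 0.14. There were 0 calls by either tool and 0 at an unadjusted *P* under 0.05, beside the same shares and with the same limit. The hypoxia factor *Epas1* stood at 207 ± 19.2 and 229 ± 21.3 CPM and *Hif1a* at 49.6 ± 4.02 and 50.2 ± 5.47 CPM, and the clock gene *Arntl* at 1.34 ± 0.31 and 1.36 ± 0.18 CPM. The other 8, which include *Arnt2* and the neuronal *Sim1* and *Npas4*, had at most 10 counts in any liver.

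Set beside genes described as targets of mouse CAR, *Cyp1a2* changed by more than most of them. Of 27 tested CAR targets, edgeR called 16 higher, against 0.764% of all tested genes, and 0 lower, with a median log2 fold change of 0.77, and 8 changed by more than *Cyp1a2* and 19 by less. *Cyp2b10*, the usual readout of CAR, rose by 4.80 ± 0.25 (log2, SE), *Cyp2c50* by 1.91 ± 0.13 and *Cyp2c37* by 1.66 ± 0.16. *Cyp1a2* is a pericentral gene. Of 19 other pericentral genes, edgeR called 2 higher (again against 0.764%) and 0 lower. The 2 were the amino acid transporter *Slc1a4* (1.19 ± 0.10) and the secreted *Lect2* (0.55 ± 0.12). The log2 fold change was above 0 for 12 of the 19 and below 0 for 7, with a median of 0.15. *Cyp2e1*, a P450 with the same pericentral pattern, stood at 9923 ± 1597 and 9449 ± 1670 CPM, and *Glul*, made by the hepatocytes next to the central vein, had a log2 fold change of 0.27 (adjusted *P* 0.155 in edgeR and 0.0128 in DESeq2). Of 14 periportal genes, 2 were called lower, against 0.265% of all tested genes, the histidine ammonia-lyase gene *Hal* (-0.46) and the immunoglobulin receptor gene *Pigr* (-0.52), with 12 of 14 below 0 and a median of -0.29. Among these 14, 8 were at an unadjusted *P* under 0.05 in edgeR, against 15.6% of all tested genes. *Slc1a4* kept its call without any single liver and *Lect2* in 2 of 10 such fits. DESeq2 called 5 pericentral genes in either direction, against 3.50% of all genes. Among these calls *Rgn* was lower (log2 fold change -0.29, adjusted *P* 0.0346 in DESeq2 and 0.167 in edgeR). *Aldh1a1*, also on the list of CAR targets, was a higher one (0.56, adjusted *P* 0.00033 in DESeq2 and 0.051 in edgeR). Of the 19, 9 were at an unadjusted *P* under 0.05 in edgeR, against 15.6%. *Hal* and *Pigr* each kept their edgeR call in 3 of 10 such fits, and the periportal count was 0 without control liver 2, 3 or 5 or treated liver 2, 3 or 5.

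**Figure D4:**
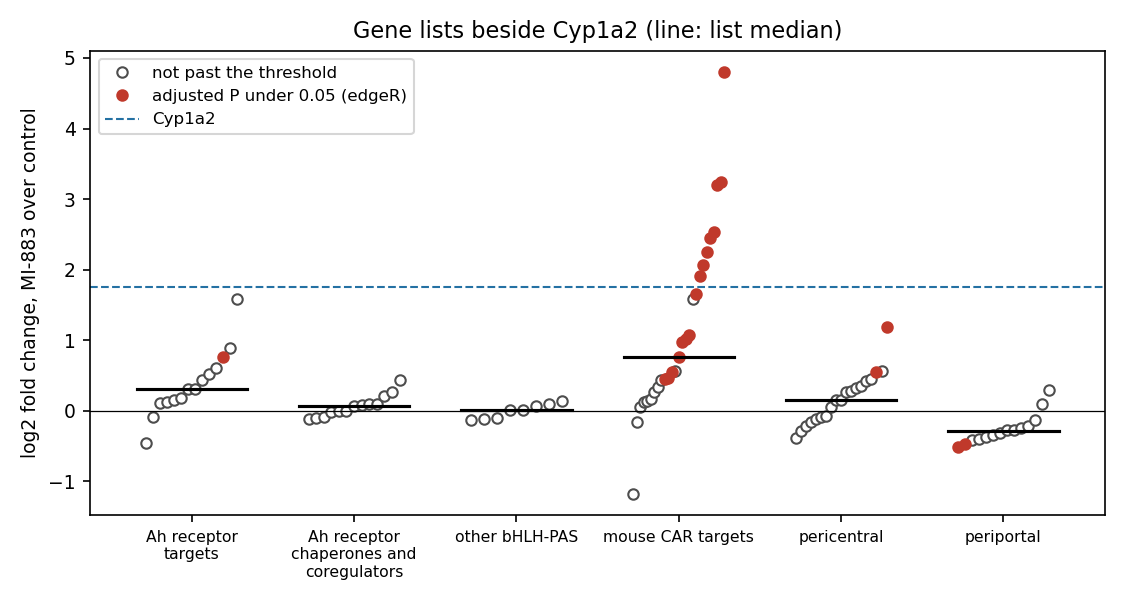
Log2 fold change of MI-883 over control (vertical axis) for each tested gene of 6 lists, 1 point a gene, filled where the adjusted *P* of edgeR was under 0.05, with a line at each list's median and a dashed line at *Cyp1a2*. Filled points are 1 of 14 Ah receptor targets, none of the chaperones, coregulators or other basic helix-loop-helix/PAS genes, and 16 of 27 CAR targets, 8 of which lie above *Cyp1a2*.

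Markers of other liver cells were read beside these results because *Ahr* and *Cyp1b1* are also made outside hepatocytes. The 8 endothelial markers summed to 119 to 157 CPM in the controls and 137 to 183 CPM in the treated livers, 7 of 8 had a log2 fold change above 0, and *Tie1* was called higher (0.67 ± 0.10, adjusted *P* 0.0054 in edgeR). DESeq2 called 2 of the 8, *Tie1* and *Cdh5* (0.53 ± 0.14, adjusted *P* 0.0223 in DESeq2 and 0.105 in edgeR), against 3.50% of all genes. The groups did not overlap for these 2, against 3.98% of all tested genes, and 4 of 8 were at an unadjusted *P* under 0.05, against 15.6%. The 9 stellate cell and fibroblast markers summed to 228 to 363 and 254 to 422 CPM with 0 edgeR or DESeq2 calls and 3 at an unadjusted *P* under 0.05. The 6 tested bile duct markers were all above 0 with 0 calls by either tool and 1 at an unadjusted *P* under 0.05, and the sums over the 7 listed genes overlapped (33.9 to 129 and 45.8 to 202 CPM). The 8 hepatocyte markers were all below 0 with 0 calls by either tool and 3 at an unadjusted *P* under 0.05 (sums of 83222 to 96040 and 73216 to 85068 CPM). Kupffer cell, lymphocyte and smooth muscle markers gave 0 calls by either tool among 8, 8 and 3 tested genes, with 1, 0 and 0 at an unadjusted *P* under 0.05. Over all tested genes edgeR called 1.03%, so 0 calls in lists this short say little about them. No defining marker was at 0 in all livers, and the part of these shifts in the *Ahr* and *Cyp1b1* values was not tested.

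Within 250 kb of the *Cyp1a1* and *Cyp1a2* pair there were 16 other listed genes. Of these, 12 were tested, with a median log2 fold change of 0.0013. Calls by edgeR were 0 of 12, against 1.03% of all tested genes, so this count says little about the locus. Of the 12, 2 were at an unadjusted *P* under 0.05 in edgeR, against 15.6% of all tested genes. DESeq2 called 1, against 3.50% of all genes. The genes on either side of the pair were *Csk*, a kinase gene, at 0.03 ± 0.08 and *Edc3*, an mRNA decapping factor gene, at -0.06 ± 0.08 (log2 fold change, SE). The gene with the highest value, *Scamp5*, had 0.62 ± 0.14 with an adjusted *P* of 0.052 in edgeR and 0.00175 in DESeq2. *Fam219b* had the lowest value at -0.29 ± 0.10. The 4 untested genes, *Rpp25*, *Cplx3*, *Lman1l* and *Sema7a*, had 0 to 14 counts a liver.

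**Figure D5:**
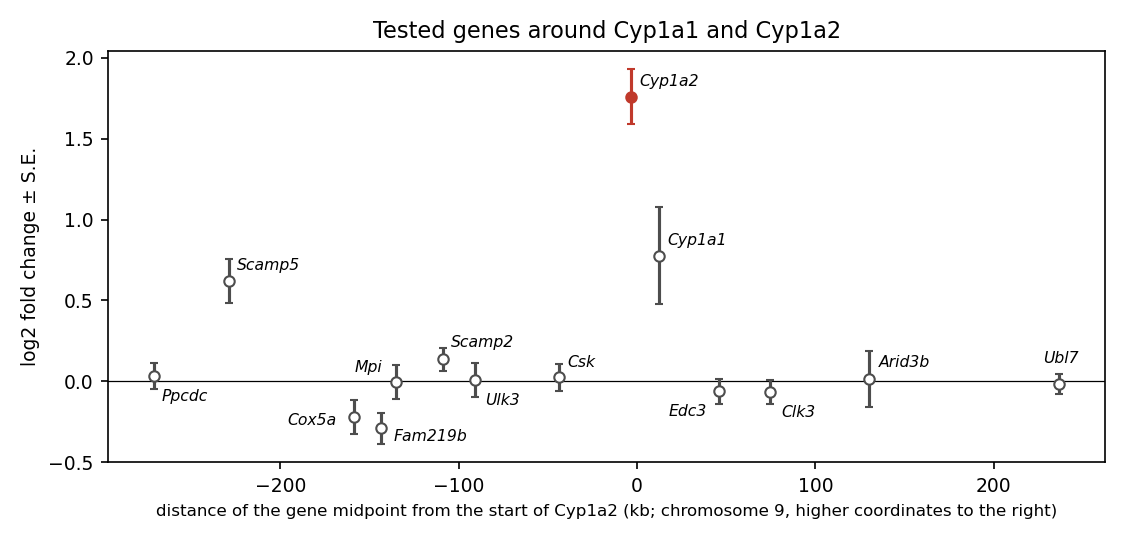
Log2 fold change ± SE (vertical axis) of *Cyp1a1*, *Cyp1a2* and the 12 other tested genes within 250 kb on chromosome 9, against the distance of each gene's midpoint from the start of *Cyp1a2* in kb (horizontal axis). *Cyp1a2* (filled, adjusted *P* under 0.05 in edgeR) stands at 1.76, *Cyp1a1* at 0.78, and the other 12 genes between -0.29 and 0.62.

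To describe which genes varied as *Cyp1a2* did from liver to liver, group means were taken out of log2 CPM. Pearson's r was then computed over the 10 livers for the 11612 other genes with a mean of at least 1 CPM. *Cyp1b1* and *Ahrr* were below this level and had no value. The rest of the Ah receptor genes were not among the most alike, with r = 0.26 for *Ahr*, 0.19 for *Cyp1a1*, -0.29 for *Arnt* and -0.54 for *Tiparp*. The 5 most alike were *Extl1* (r = 0.971), *Slc25a45* (0.967), *Brd3* (0.946), *Kifc2* (0.930) and *Sfmbt1* (0.920), none of which was called between the groups (edgeR). The livers share library depth and scaling, and over so many genes and so few livers values of this size have no test here.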

How the data were processed

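Liver RNA of 5 control and 5 MI-883 mice was sequenced on a NovaSeq6000 with a directional kit. The authors trimmed reads with fastp 0.23.0, aligned them to mm10 with STAR and counted them with featureCounts. Strand setting, annotation and the other versions are not given in the sources used here. The authors deposited raw counts per Entrez gene, not normalized; 16644 of 16647 were matched to RefSeq symbols (GRCm38.p6). Livers were grouped by their labels. Genes with at least 60 counts over the 10 livers (13219) were tested with edgeR 4.0.16 (R 4.3.3, TMM, quasi-likelihood, condition as the sole term, Benjamini-Hochberg over all tested genes, threshold 0.05), and with DESeq2 1.42.0 as an alternative. CPM used TMM-scaled totals. Ratios, and the permutation tests of ratios and of single genes, used log2 CPM with a prior count of 2. These tests were exact and two-sided (SciPy 1.17.1). Lengths were merged exons (GENCODE). Values cover counting error and the spread between mice. Scripts were checked on simulated counts. Named genes are the 7 genes, called or listed genes of the pathway lists, neighbours within 250 kb, and the 5 genes most like *Cyp1a2*. The genes and lists were chosen with earlier results of these data known, and the list sizes and directions are no independent support. Some genes of the pathway lists are not reported here and were left out of the list counts.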

Additional observations from a re-analysis of the deposited data

How the results depend on the processing

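*Cyp1a2* stayed past the threshold under all 17 alternatives, with log2 fold changes of 1.70 to 1.88, and *Cyp1a1*, *Cyp1b1* and *Arnt* stayed short of it wherever they were tested (*Cyp1a1* and *Cyp1b1* had no value with 60 counts required in every liver). The number of the 7 genes called was 2 with DESeq2 and 1 in each of the fits without a liver. Over all genes 136 were called, 463 with DESeq2 and 62 (without treated liver 5) to 208 (without control liver 1) with a liver left out, past 1.5 times also without control liver 2, 3, 4 or 5 or treated liver 2, and the cause was not tested. The *Tiparp* log2 fold change was 0.015 with total counts and -0.13 to 0.098 without single livers. The *Cyp1a2* to *Cyp1b1* log2 ratio differed by 1.17 to 1.68 without single livers (exact permutation *P* 0.0159 to 0.0794).

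No pairing of the mice by replicate number was evident, though it was not tested (correlations of same-numbered deviations -0.12 to 0.36, over 0.1 in 1 of 5 pairs, and 0 of 5 livers matched their own number best). With the replicate number as a block 89 genes were called. The blocked log2 ratio differences were 0.99 (*Cyp1a1*), 1.40 (*Cyp1b1*), 1.03 (*Ahr*), 1.67 (*Arnt*) and 1.79 (*Tiparp*), with exact sign-flip *P* of 0.125 for *Cyp1b1* and 0.0625, the smallest that 5 pairs allow, for the rest, so this test could not pass 0.05. Depth limits *Ahrr*, *Cyp1a1* and *Cyp1b1*, with at most 73 counts a liver.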
